A study of Homo sapiens with 24 samples.

Results

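Polyamine metabolism was examined through 10 genes, SAT1, ODC1, OAZ1, OAZ2, AZIN1, AMD1, SRM, SMS, SMOX and PAOX, all of which matched 1 Ensembl identifier each among the 60236 genes of the count table. SAT1 was selected on its high level in the HEK293T scramble libraries, and its partners were listed as the enzymes and regulators of the same pathway. The difference of SAT1 between scramble and any other HEK293T library is therefore a description and carries no test. The 24 RNA-seq libraries came from HEK293T, a human embryonic kidney line, and A549, a human lung adenocarcinoma line. Each line received 1 of 4 plasmids by Lipofectamine 3000 transfection and was collected 48 h later, with 3 replicates in each of the 8 groups. The plasmids carried snaR-A, a small noncoding RNA made by RNA polymerase III, or its scrambled sequence, both from a U6 promoter, or SF3B2, a protein of the U2 snRNP, or eGFP, both on another backbone with a FLAG tag. In comparisons that cross the backbones, the insert and the vector cannot be told apart. All cells were transfected. The study's methods call the replicates of its sequencing experiments biological and say that they were handled together on 1 day, so p-values measure the spread between replicates of 1 such day.

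Polyamines (putrescine, spermidine and spermine) are small positively charged molecules that bind nucleic acids and are needed for growth. ODC1 makes putrescine, AMD1 provides the aminopropyl donor, and SRM and SMS build spermidine and spermine from them. SAT1 acetylates spermidine and spermine and so starts their breakdown, after which PAOX oxidizes the acetylated forms, while SMOX oxidizes spermine directly; the antizymes OAZ1 and OAZ2 send ODC1 protein to the proteasome and the antizyme inhibitor AZIN1 opposes them.

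The library totals lay between 195186194 and 260878268 estimated counts, and the most that a count of 0 allows by counting error alone, 3 counts, corresponded to 0.0115 to 0.0154 CPM. CPM are counts relative to the TMM-scaled library total (TMM is edgeR's scaling that balances the bulk of genes), computed over the 24 libraries. SF3B2 lay at 24050 to 48890 CPM in the 6 libraries that received its plasmid and at 293 to 372 CPM in 17 of the other 18. The exception was A549 scramble replicate 3, with 8773 CPM. A list of 8 genes typical of A549 lay at a median of 0.00831% to 0.102% of its A549 eGFP level in 11 HEK293T libraries, but at 3.48% (2.35% to 5.75% over the 8 genes) in HEK293T eGFP replicate 3. Its summed level was 19590 to 21730 CPM in A549, 13.6 to 34.4 CPM in those 11 libraries and 733 CPM in that replicate, and no gene of the list was at 0 in any HEK293T library. Of the 6 genes typical of HEK293T, INA was higher in A549 (106 to 148 CPM) than in HEK293T (18.3 to 29.4 CPM), against its place on the list, and DACH1 was at 0 in 7 of the 12 A549 libraries. A549 snaR-A replicate 3 has label fields that disagree on the line, and its A549 marker sum of 19870 CPM was that of A549.

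SAT1 showed its highest levels in A549 and, within HEK293T, in scramble. In HEK293T scramble the 3 libraries lay at 149, 124 and 112 CPM. In HEK293T SF3B2 they lay at 59.8, 50.9 and 39.9 CPM, in snaR-A at 50.4, 33.9 and 43.9 CPM, and in eGFP at 29.6, 25.8 and 50.8 CPM. The scramble libraries were all above the other 9, by the values SAT1 was chosen by, while SF3B2, snaR-A and eGFP overlapped one another. The scramble mean of 128 ± 19.1 CPM (SD, n = 3) was 2.55 times the SF3B2 mean (50.2 ± 9.96), 3 times the snaR-A mean (42.7 ± 8.31) and 3.61 times the eGFP mean (35.4 ± 13.5). In A549 the order was different, with eGFP at 582, 559 and 605 CPM and scramble at 594, 577 and 494 CPM. The snaR-A libraries lay at 501, 500.4 and 503 CPM and the SF3B2 libraries at 501, 467 and 470 CPM. Each neighbour in that order overlapped the next in at least 1 library, and the highest A549 mean was 1.21 times the lowest. The plot of SAT1 by library shows scramble above the other HEK293T groups, by the values SAT1 was chosen by, and overlapping other groups in A549. There the overlap with snaR-A and SF3B2 came from scramble replicate 3 alone (494 CPM), the library with high SF3B2. The other scramble libraries (594 and 577 CPM) lay above all A549 snaR-A and SF3B2 libraries and within the range of eGFP.

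**Figure D1:**
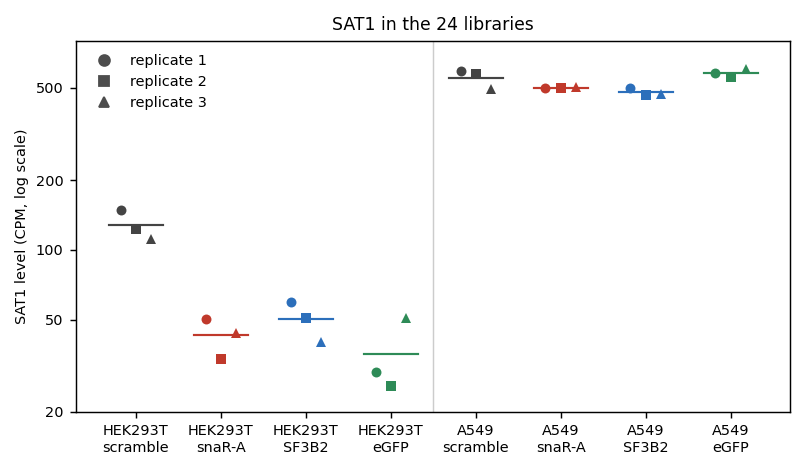
SAT1 level (CPM, log scale) in each of the 24 libraries, with points for the 3 replicates and lines for the group means. The HEK293T scramble libraries (112 to 149 CPM) lie above the other 9 HEK293T libraries (25.8 to 59.8 CPM), and all 12 A549 libraries (467 to 605 CPM) lie above all 12 HEK293T libraries.

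SAT1 lies at chrX:23783173-23786210 on the plus strand (GENCODE 44, GRCh38), with 8 annotated transcripts, 2 of them protein-coding, 5 with a retained intron and 1 subject to nonsense-mediated decay. The deposited table gives 1 value per gene, and which of these transcripts it covers is not stated. A change in the coding form therefore cannot be told apart from one in any retained-intron forms that were counted. In RefSeq's promoter records on GRCh38.p14, 7 of the 10 genes had an entry, and AZIN1, SMOX and PAOX did not. The 250 bases before the start are shown for SAT1 and for SMS, ODC1 and SRM, the members that differed from scramble in HEK293T. Sequences run 5′ to 3′ on the strand of the gene, and capitals mark, on either strand, the CCAAT box (letters CCAAT), the GC box with GGGCGG, the E-box with CACGTG and the AP-1 site with TGANTCA; no 2 matches of different motifs overlap.
SAT1 (chrX:23782923-23783172, plus strand): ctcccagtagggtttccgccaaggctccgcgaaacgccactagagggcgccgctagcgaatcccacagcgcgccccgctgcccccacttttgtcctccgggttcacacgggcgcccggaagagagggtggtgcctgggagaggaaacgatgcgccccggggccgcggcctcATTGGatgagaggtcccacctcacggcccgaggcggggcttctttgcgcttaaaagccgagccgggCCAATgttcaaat
SMS (chrX:21940459-21940708, plus strand): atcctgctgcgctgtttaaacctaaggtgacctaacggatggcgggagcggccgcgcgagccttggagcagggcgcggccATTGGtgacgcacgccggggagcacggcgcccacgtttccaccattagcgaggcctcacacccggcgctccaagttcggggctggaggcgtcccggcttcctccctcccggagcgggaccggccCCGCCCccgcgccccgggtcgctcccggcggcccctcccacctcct
ODC1 (chr2:10448328-10448577, minus strand): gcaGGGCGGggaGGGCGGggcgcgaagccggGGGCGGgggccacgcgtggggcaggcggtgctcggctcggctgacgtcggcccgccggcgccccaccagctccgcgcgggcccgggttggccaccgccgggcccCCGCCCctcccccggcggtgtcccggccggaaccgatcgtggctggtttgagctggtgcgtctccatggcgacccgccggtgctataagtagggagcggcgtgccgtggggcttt
SRM (chr1:11060019-11060268, minus strand): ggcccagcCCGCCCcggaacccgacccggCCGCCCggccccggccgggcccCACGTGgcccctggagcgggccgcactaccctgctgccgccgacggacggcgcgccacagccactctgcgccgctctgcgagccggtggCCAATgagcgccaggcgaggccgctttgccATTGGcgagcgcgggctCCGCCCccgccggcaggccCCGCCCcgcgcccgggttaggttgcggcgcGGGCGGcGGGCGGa

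SAT1 held 2 CCAAT boxes in this window, starting at -79 and -13 relative to the first transcribed base, and no GC box, whereas ODC1 held 4 GC boxes and no CCAAT box and SRM held 6 GC boxes, 2 CCAAT boxes and 1 E-box at -199. SMS held 1 CCAAT box and 1 GC box. Among 35116 RefSeq promoter windows of this length, 32% held a CCAAT box, 42.6% a GC box, 6.34% the E-box and 6.57% the AP-1 letters. The other letters searched were TATGACTAA (the polyamine response element, in 0.0826% of the windows), TGACNNNGC (the core of the antioxidant response element, 10.9%), TGACGTCA (the cyclic AMP response element, 1.65%) and the TATA box with the letters TATAAA (10.7%), none of which occurred in the 4 windows shown. A second ODC1 record, whose window lies inside the annotated gene, held 4 GC boxes and an E-box at -29. These matches are letters in a short window and were not tied to any difference in the libraries.

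In HEK293T the synthesis genes ODC1, SRM and SMS also separated from scramble. Their steps were smaller than that of SAT1, which was chosen for its level in these scramble libraries, so its larger step is no result. ODC1 lay at 165, 182 and 157 CPM in scramble, and at 189, 213 and 199 CPM in snaR-A, 211, 224 and 214 CPM in SF3B2 and 208, 235 and 209 CPM in eGFP. None of the 9 other libraries reached down into the scramble range. SRM lay at 52.4, 53.4 and 48.5 CPM in scramble, at 57.3, 62.3 and 65.2 CPM in snaR-A and at 62.6, 65.3 and 58.5 CPM in eGFP, with no overlap, while its SF3B2 libraries (56.9, 52.7 and 62.3 CPM) overlapped scramble. SMS, the spermine synthase, was the reverse and resembled SAT1, with 145, 155 and 137 CPM in scramble, 119, 114 and 119 CPM in snaR-A, 128, 125 and 122 CPM in SF3B2 and 108, 107 and 115 CPM in eGFP. Its scramble libraries were all above the other 9.

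Against scramble, ODC1 rose with all 3 other plasmids in HEK293T, by a log2 fold change of 0.27 ± 0.06 (SE) with snaR-A (adjusted p = 0.012), 0.37 ± 0.07 with SF3B2 (adjusted p = 0.0077) and 0.37 ± 0.07 with eGFP (adjusted p = 0.00499), by edgeR's quasi-likelihood test adjusted over all genes tested. SMS fell with all 3, by 0.30 ± 0.05 (adjusted p = 0.0028), 0.22 ± 0.06 (adjusted p = 0.034) and 0.40 ± 0.06 (adjusted p = 0.0014) on the log2 scale in the same order. SRM rose with snaR-A (0.27 ± 0.06, adjusted p = 0.0071) and with eGFP (0.27 ± 0.06, adjusted p = 0.006), and was 0.16 ± 0.08 with SF3B2 (adjusted p = 0.13). The 3 comparisons share the scramble libraries. Scaling by library totals alone kept these calls and added SMOX, PAOX and AZIN1 with snaR-A and AZIN1 with eGFP, all higher than in scramble. With snaR-A 5 then rose and 1 fell, in place of 2 and 1. All genes were called at 37% with snaR-A, 48.4% with eGFP and 31.8% with SF3B2 under that scaling. Counting the 9 members other than SAT1, 3 of 9 were called (adjusted p under 0.05) with snaR-A against scramble, 3 of 9 with eGFP and 2 of 9 with SF3B2. The shares of all genes called were 36.3%, 48.8% and 34.3%. The members' shares of 33.3%, 33.3% and 22.2% lay near or below these, and with only 9 members the gap was not tested. Their median log2 fold changes of 0.03, 0.09 and 0.03 lay beside medians of -0.01, -0.01 and -0.01 over all genes tested. SAT1 differed from scramble by -1.57, -1.85 and -1.34 with snaR-A, eGFP and SF3B2, given without a test.

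The remaining 6 members did not pass the test against scramble in HEK293T. The antizyme OAZ1 ranged from -0.26 ± 0.11 with SF3B2 (adjusted p = 0.11) to -0.01 ± 0.05 with snaR-A (adjusted p = 0.9), and OAZ2 from -0.20 with SF3B2 to -0.02 with snaR-A. AZIN1 lay at 145 to 165 CPM in all 12 HEK293T libraries, and its highest group mean was 1.04 times its lowest. AMD1, the S-adenosylmethionine decarboxylase, lay at 320, 283 and 167 CPM in SF3B2 against 196, 194 and 160 CPM in scramble (log2 fold change 0.49 ± 0.22, adjusted p = 0.12), and the lowest SF3B2 library lay within the scramble range. SMOX, the spermine oxidase, lay at 3.32 to 4.36 CPM in 11 libraries and at 8.49 CPM in eGFP replicate 3. PAOX was the lowest member, at 0.433 to 1.04 CPM, and 58.1% of the 31-base words of its transcripts also occur in another gene (ENSG00000254536), so its counts may hold reads of both. Some calls were lost when 1 library was left out. The snaR-A call of ODC1 was lost without scramble replicate 1 (adjusted p = 0.051) or snaR-A replicate 2 (adjusted p = 0.055), and the SF3B2 call of SMS was lost without scramble replicate 1 or 2 or SF3B2 replicate 2 or 3 (adjusted p from 0.06 to 0.12). Without SF3B2 replicate 3, AMD1 (0.73) and OAZ1 (-0.39) were called with SF3B2, beside 38.8% of all genes. With eGFP, the number called rose to 5 without scramble replicate 3, when OAZ1 and OAZ2 were added and 44.6% of all genes were called. Without eGFP replicate 3 the same 3 members were called, with ODC1 at 0.41, SRM at 0.32 and SMS at -0.43, beside 46.5% of all genes.

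**Figure D2:**
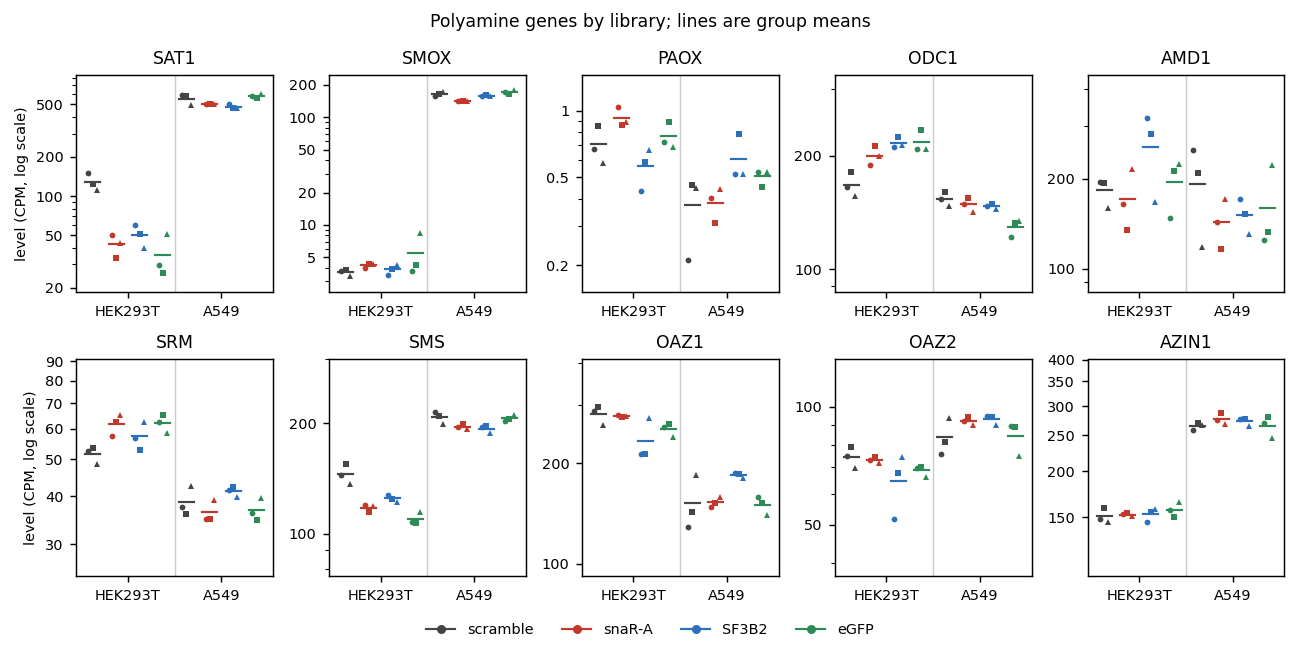
Level (CPM, log scale) of the 10 polyamine genes in each library, with colours for the plasmid, point shapes for the replicate (circle 1, square 2, triangle 3) and lines for group means. In HEK293T, scramble is the lowest group for ODC1 (157 to 182 CPM) and the highest for SMS (137 to 155 CPM), while SMOX separates the lines with 140 to 178 CPM in A549 and 3.32 to 8.49 CPM in HEK293T.

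Among the HEK293T groups other than scramble, SAT1 could be tested independently of its selection, and it did not pass with all libraries. SAT1 was 0.25 ± 0.27 on the log2 scale with snaR-A against eGFP (adjusted p = 0.56), 0.49 ± 0.27 with SF3B2 against eGFP (adjusted p = 0.33) and 0.23 ± 0.18 with SF3B2 against snaR-A (adjusted p = 0.4). Its highest eGFP library, replicate 3 (50.8 CPM), is the one with A549 markers at 3.48% of their A549 level. Without it, the eGFP libraries (29.6 and 25.8 CPM) lay below all snaR-A (33.9 to 50.4 CPM) and SF3B2 libraries (39.9 to 59.8 CPM). SAT1 then rose by 0.61 ± 0.16 with snaR-A (adjusted p = 0.046, where 13.4% of all genes were called) and was 0.85 ± 0.17 with SF3B2, short of the threshold (adjusted p = 0.16). The same replicate had the highest SMOX level in HEK293T, and SMOX, at -0.39 ± 0.30 with snaR-A and -0.52 ± 0.31 with SF3B2 against eGFP, came to 0.07 ± 0.10 and -0.06 ± 0.14 without it. The part of the A549 markers in these values was not tested. The plot of SAT1 and SMOX against the marker level shows this replicate alone at the right in both panels.

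**Figure D3:**
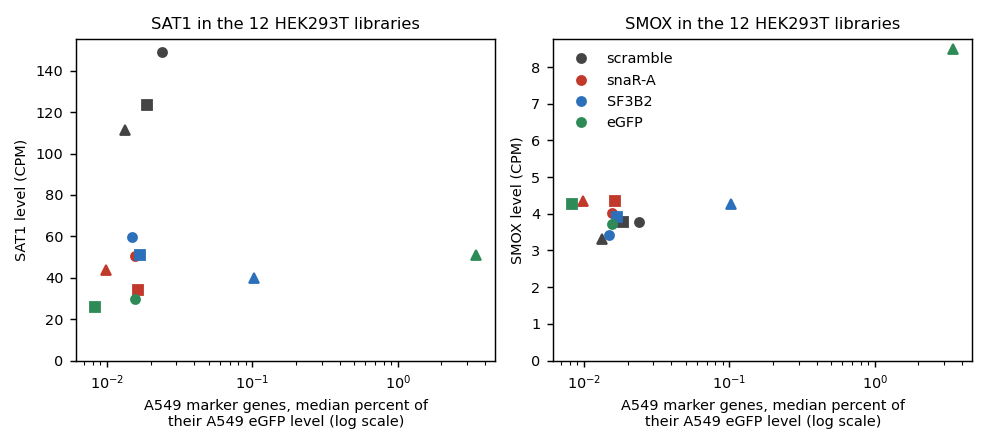
SAT1 (left) and SMOX (right) level in CPM of the 12 HEK293T libraries against the median level of 8 A549 marker genes, in percent of their A549 eGFP level (log scale). Point shapes are replicates 1 to 3 (circle, square, triangle). HEK293T eGFP replicate 3 stands alone at 3.48%, with SMOX at 8.49 CPM against 3.32 to 4.36 CPM elsewhere, and SAT1 at 50.8 CPM against 29.6 and 25.8 CPM in the other eGFP libraries.

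No member was called among these 3 comparisons, where 15%, 0.172% and 7.1% of all genes were called with snaR-A against eGFP, SF3B2 against eGFP and SF3B2 against snaR-A. At an unadjusted p under 0.05 there were 1, 1 and 2 members, namely OAZ1 (0.11 ± 0.04, adjusted p = 0.12), SMS (0.17 ± 0.05, adjusted p = 0.17) and the pair PAOX and OAZ1 (-0.73 ± 0.19, adjusted p = 0.058, and -0.25 ± 0.10, adjusted p = 0.14). By edgeR's exactTest the counts were 0, 0 and 1, and by DESeq2 0, 0 and 1, the 1 being PAOX. All genes were called at 12.4%, 2.85% and 13.2% by exactTest and at 22.9%, 9.25% and 21.7% by DESeq2. The members' medians were 0.02, -0.08 and -0.05, beside -0.00368, -0.02 and -0.01 over all genes. Without SF3B2 replicate 3, whose AMD1 (167 CPM) and OAZ1 (274 CPM) stood apart from its group (283 and 320 CPM for AMD1, 213 and 213 CPM for OAZ1), PAOX, AMD1 and OAZ1 were called with SF3B2 against snaR-A. The share of all genes called in that fit was 29.6%, so 3 of 10 members was near the background.

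In A549 none of the 10 members was called with snaR-A, eGFP or SF3B2 against scramble, where 0.0185%, 1.49% and 0.233% of all genes were called by edgeR's quasi-likelihood test. Unadjusted, 1, 1 and 2 members had a p under 0.05, which were SMOX with snaR-A (-0.22 ± 0.04, adjusted p = 0.79), ODC1 with eGFP (-0.25 ± 0.06, adjusted p = 0.17), and SAT1 and OAZ1 with SF3B2. By exactTest 0, 1 and 0 were called and by DESeq2 1, 1 and 0. All genes were called at 0.0923%, 1.96% and 0.997% by exactTest and at 0.185%, 2.47% and 1.77% by DESeq2. AMD1 had a scramble mean 1.34, 1.28 and 1.21 times that of snaR-A, SF3B2 and eGFP, with scramble libraries from 118 to 251 CPM. The medians of -0.07, -0.00843 and -0.00097 lay beside 0.000585, -0.01 and 0.00607 over all genes. SAT1 was -0.15 ± 0.07 with snaR-A (adjusted p = 0.79), 0.06 ± 0.08 with eGFP (adjusted p = 0.98) and -0.20 ± 0.08 with SF3B2 (adjusted p = 0.37).

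These A549 values rest partly on scramble replicate 3, the library with high SF3B2. It was the lowest scramble library for SAT1 (494 against 594 and 577 CPM) and AMD1 (118 against 251 and 210 CPM) and the highest for OAZ1 (184 against 129 and 143 CPM) and OAZ2 (93.5 against 75.7 and 81.3 CPM). Without it, 6 of 10 members were called with SF3B2 against scramble, and the share of all genes called rose as well, to 21.9%. SAT1 (-0.30 ± 0.04, adjusted p = 0.0072), AMD1 (-0.62 ± 0.12, adjusted p = 0.015) and SMS (-0.14 ± 0.03, adjusted p = 0.029) were then lower with SF3B2, and OAZ1 (0.44 ± 0.05, adjusted p = 0.0044), OAZ2 (0.23 ± 0.04, adjusted p = 0.01) and SRM (0.16 ± 0.04, adjusted p = 0.034) were higher. SAT1 with eGFP against scramble turned from 0.06 to -0.01 without it. Whether its SF3B2 level bears on the members was not tested.

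Against eGFP, A549 showed small differences in SMOX and SAT1 of the breakdown genes, in ODC1 and in its antizyme OAZ1. SMOX lay at 142, 140 and 143 CPM with snaR-A and at 173, 166 and 178 CPM with eGFP, without overlap, and fell by 0.28 ± 0.04 on the log2 scale (adjusted p = 0.017). It was the single member called with snaR-A against eGFP, where 2.06% of all genes were called. SAT1 lay at 501, 500.4 and 503 CPM with snaR-A, below all eGFP libraries (582, 559 and 605 CPM), at -0.21 ± 0.04 (adjusted p = 0.065). It was called by exactTest (adjusted p = 0.0056) and by DESeq2 (adjusted p = 0.00072), where 2.98% and 4.02% of all genes were called. With SF3B2 against eGFP SAT1 fell by 0.27 ± 0.05 (adjusted p = 0.023), while ODC1 rose by 0.20 ± 0.05 (adjusted p = 0.049) and OAZ1 by 0.31 ± 0.05 (adjusted p = 0.013). OAZ1 lay at 187, 186 and 181 CPM with SF3B2, above eGFP (158.5, 152 and 140 CPM) and snaR-A (148, 152 and 159 CPM), and ODC1 at 147, 149 and 144 CPM with SF3B2 against 122, 132 and 134 CPM with eGFP. These were 3 of 10 members, beside 7.02% of all genes, and the members' median was 0.10 beside 0.00631. The ODC1 call was lost under RLE scaling (adjusted p = 0.058), library totals alone (0.063) and no low-count filter (0.058), and the OAZ1 call when all A549 libraries were fitted together (adjusted p = 0.13). A fit with the replicate number as a block ended the SAT1 call (adjusted p = 0.054) and the ODC1 call (adjusted p = 0.099).

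With SF3B2 against snaR-A in A549, SMOX (0.17 ± 0.02, adjusted p = 0.044) and OAZ1 (0.28 ± 0.04, adjusted p = 0.031) were called, 2 of 10 beside 0.675% of all genes, and their groups did not overlap (SMOX 157 to 160 against 140 to 143 CPM). The medians were 0.05 for the members and 0.00427 for all genes, and -0.05 beside 0.00162 with snaR-A against eGFP. The SMOX call was lost under library totals alone (adjusted p = 0.061), and both were lost when all A549 libraries were fitted together (adjusted p = 0.25 for SMOX and 0.38 for OAZ1). Both were also lost with the replicate number as a block (adjusted p = 0.13 for each). The A549 calls were also sensitive to the libraries. The number called with snaR-A against eGFP fell to 0 without eGFP replicate 1 or any 1 of the snaR-A replicates (SMOX adjusted p from 0.06 to 0.12) and rose to 2, with SAT1 (adjusted p = 0.037), without eGFP replicate 3. With SF3B2 against eGFP it fell to 0 without any 1 of the SF3B2 replicates, to 1 (OAZ1) without eGFP replicate 1 and to 1 (SAT1) without eGFP replicate 2. It rose to 4, with SRM, without eGFP replicate 3, when 14.7% of all genes were called. With SF3B2 against snaR-A it fell to 0 without any 1 of the SF3B2 replicates or snaR-A replicate 1 or 2, and rose to 3, with SRM, without snaR-A replicate 3, beside 9.6% of all genes. The direction of each of these calls stayed the same in all of these fits.

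**Figure D4:**
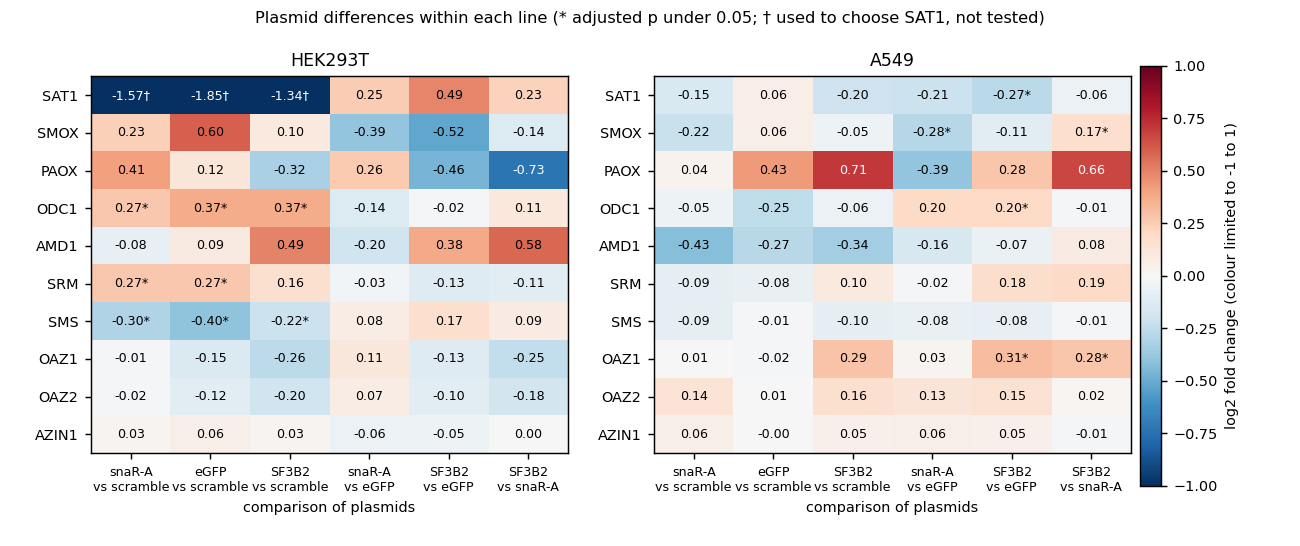
Log2 fold change of the 10 genes in the 6 comparisons of plasmids within HEK293T (left) and A549 (right), with colours limited to -1 and 1. Stars mark an adjusted p under 0.05 by edgeR's quasi-likelihood test and daggers mark the SAT1 values (-1.57, -1.85 and -1.34) that were used to choose it. Calls against scramble in HEK293T are at ODC1, SRM and SMS, and A549 has calls at SAT1, SMOX, ODC1 and OAZ1 against eGFP or snaR-A.

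Between the lines, the largest differences of the 10 genes were those of SMOX and SAT1. SMOX lay at 140 to 178 CPM in the 12 A549 libraries and 3.32 to 8.49 CPM in the 12 HEK293T libraries. With snaR-A, SF3B2, eGFP and scramble its log2 fold change in HEK293T against A549 was -5.04 ± 0.04, -5.36 ± 0.09, -4.94 ± 0.36 and -5.45 ± 0.08 (adjusted p from 5.36e-10 to 2.82e-05 by edgeR), and the A549 mean was 31.4 to 45.5 times the HEK293T mean. SAT1 was lower in HEK293T, at -3.53 ± 0.13 with snaR-A (adjusted p = 4.41e-08), -3.26 ± 0.15 with SF3B2 (adjusted p = 1.08e-06) and -4.01 ± 0.28 with eGFP (adjusted p = 2.49e-05). With scramble, where SAT1 was chosen for its level, it was -2.06, given without a test, and the A549 mean was 4.34 times the HEK293T mean. Without HEK293T eGFP replicate 3 the eGFP differences were -4.40 ± 0.10 for SAT1 and -5.44 ± 0.09 for SMOX. PAOX was the exception among the breakdown genes, higher in HEK293T with snaR-A (1.29 ± 0.18, adjusted p = 0.00016), eGFP (0.63 ± 0.16, adjusted p = 0.01) and scramble (0.97 ± 0.31, adjusted p = 0.019), and -0.12 ± 0.25 with SF3B2 (adjusted p = 0.68). All PAOX levels were near or below 1 CPM, 40 to 323 counts a library.

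The synthesis genes were split between the lines. ODC1 was higher in HEK293T with each plasmid, by 0.45 ± 0.05, 0.55 ± 0.05, 0.78 ± 0.07 and 0.19 ± 0.07 with snaR-A, SF3B2, eGFP and scramble (adjusted p from 3.39e-05 to 0.038). SRM was higher by 0.78 ± 0.06, 0.47 ± 0.07, 0.79 ± 0.07 and 0.47 ± 0.08 in the same order (adjusted p from 5.39e-06 to 0.00062). SMS was lower in HEK293T, at -0.72 ± 0.03, -0.64 ± 0.04, -0.88 ± 0.05 and -0.46 ± 0.07 (adjusted p from 8.74e-08 to 0.00025). With scramble the HEK293T mean of ODC1 was 1.09 times the A549 mean, less than the 1.3 times by which the means of the HEK293T groups ranged. The ODC1 and SMS differences were both smallest with scramble, the plasmid at which HEK293T was lowest for ODC1 and highest for SMS. AMD1 was called with SF3B2 (0.76 ± 0.23, adjusted p = 0.021) and not with snaR-A (0.28), eGFP (0.32) or scramble (-0.01). Without A549 scramble replicate 3, the library with high SF3B2, AMD1 was called with scramble as lower in HEK293T (-0.28 ± 0.10, adjusted p = 0.043), and under library totals alone it was called with snaR-A (0.76) and eGFP (0.83). Of the 31-base words of SMS, 29.9% are shared with ENSG00000213080, so part of its count is uncertain.

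Among the regulators of ODC1, OAZ1 was higher in HEK293T by 0.88 ± 0.04, 0.34 ± 0.10, 0.79 ± 0.07 and 0.95 ± 0.13 with snaR-A, SF3B2, eGFP and scramble (adjusted p from 6.57e-08 to 0.02). The smaller SF3B2 value went with the higher A549 and lower HEK293T levels of that group (181 to 187 and 213 to 274 CPM). AZIN1 was lower in HEK293T (-0.84 ± 0.03, -0.84 ± 0.05, -0.73 ± 0.07 and -0.75 ± 0.06), with 145 to 165 CPM in HEK293T and 246 to 288 CPM in A549. OAZ2 was lower in HEK293T, at -0.31 ± 0.03, -0.53 ± 0.12 and -0.26 ± 0.08 with snaR-A, SF3B2 and eGFP (adjusted p from 1.75e-05 to 0.018) under TMM, but it turned to 0.17 and 0.24 with snaR-A and eGFP when libraries were scaled by their totals alone. That scaling moved the median of all genes to 0.38 to 0.57 in the line comparisons, from 0.01 to 0.06 under TMM, and it left no call for SMS with scramble (-0.06) or OAZ2 with SF3B2 (-0.15).

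In counts, 9 of 10 members were called between the lines with snaR-A, 9 of 10 with SF3B2, 9 of 10 with eGFP and 7 of 9 (without SAT1) with scramble. In HEK293T 4 were higher and 5 lower with each of the first 3 plasmids, and 4 higher and 3 lower with scramble. By library totals alone the split was 6 higher and 4 lower with snaR-A and eGFP, 4 and 4 with SF3B2, and 5 and 2 with scramble. With snaR-A, SF3B2, eGFP and scramble, all genes were then called at 82.6%, 75.4%, 80.1% and 77.9%. Under TMM, all genes were called at 81.2%, 74.5%, 77% and 77.5%, so such calls were the rule in this contrast. The members' medians of -0.01, -0.32, 0.03 and -0.01 lay beside 0.01, 0.01, 0.06 and 0.01 over all genes. What set SAT1 and SMOX apart from most genes was the size of the difference, since the median absolute log2 fold change over all genes tested was 0.897 to 0.976. Leaving out 1 library ended the call of AMD1 with SF3B2 (without A549 SF3B2 replicate 2 or 3 or HEK293T SF3B2 replicate 1 or 2), of OAZ1 with SF3B2 (without any 1 of the A549 SF3B2 replicates), of OAZ2 with eGFP (without A549 eGFP replicate 1 or 2), and, with scramble, of PAOX (without HEK293T scramble replicate 2) and ODC1 (without A549 scramble replicate 1 or 3 or HEK293T scramble replicate 1 or 2). It added AMD1 with snaR-A (0.45, without HEK293T snaR-A replicate 2), with eGFP (0.63, without A549 eGFP replicate 3) and with scramble, as above. SAT1, SMOX, SRM, SMS and AZIN1 kept each of their calls in these fits.

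**Figure D5:**
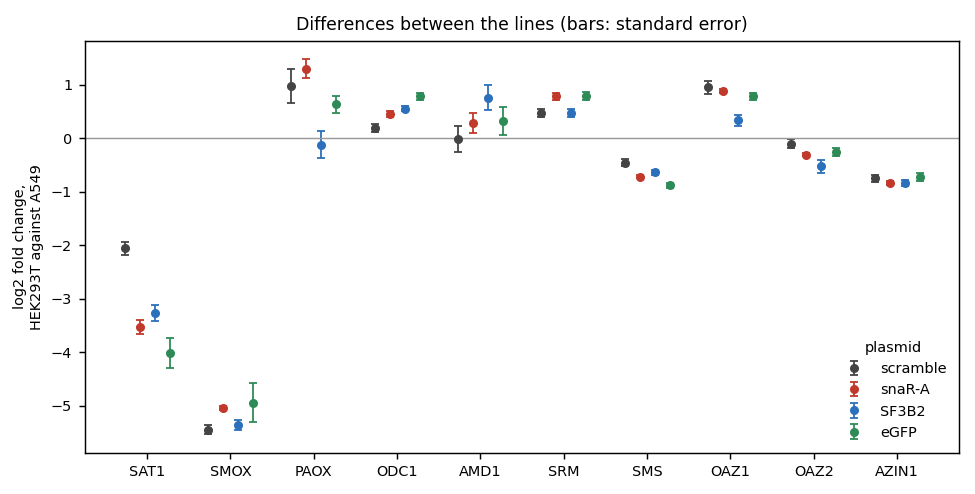
Log2 fold change in HEK293T against A549 for each gene and plasmid, with bars for the standard error. SMOX (-4.94 to -5.45) and SAT1 (-2.06 to -4.01) are far below 0, ODC1, SRM and OAZ1 are above 0 and SMS and AZIN1 below it with each plasmid. Under scaling by library totals, not shown here, OAZ2 is above 0 with snaR-A, eGFP and scramble. The SAT1 value with scramble was used to choose SAT1.

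Compared per kilobase of the canonical transcript, so that genes can be set beside each other, SAT1 had the highest mean of the 10 genes in each A549 group, 457 to 555 CPM per kb, with OAZ1 next at 131 to 161 CPM per kb. In HEK293T OAZ1 led in each group (204 to 244 CPM per kb), and SAT1 was at 122 CPM per kb in scramble, next to OAZ1, and at 33.8 to 47.9 CPM per kb in the other groups, between ranks 5 and 8. SMOX was at rank 4 or 5 in A549 (65.5 to 79.6 CPM per kb) and at rank 9 in HEK293T (1.68 to 2.54 CPM per kb), just above PAOX. SMS stayed at rank 3 or 4 in all 8 groups. These ranks are of levels and depend on the transcript length chosen.

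Whether a plasmid's effect differed between the lines was tested for the contrasts with eGFP. With snaR-A against eGFP no member was called, beside 6.45% of all genes, and 3 members had an unadjusted p under 0.05, PAOX, ODC1 and SMS. By DESeq2 the same 3 were called, beside 14.3% of all genes. ODC1 was -0.32 ± 0.09 (adjusted p = 0.06), from -0.14 in HEK293T and 0.20 in A549. SAT1 was 0.48 ± 0.31 (adjusted p = 0.39), and 0.88 ± 0.17 (adjusted p = 0.015) without HEK293T eGFP replicate 3, when SMOX (0.41 ± 0.08, adjusted p = 0.013) and SMS (0.25 ± 0.05, adjusted p = 0.017) were also called, 3 of 10 beside 8.19% of all genes. With SF3B2 against eGFP SMS was called at 0.28 ± 0.06 (adjusted p = 0.029), 1 of 10 members beside 6.1% of all genes. SAT1 was 0.78 ± 0.31 (adjusted p = 0.14) and 1.14 ± 0.18 (adjusted p = 0.0092, where 6.98% of all genes were called) without that replicate, beside 0.85 in HEK293T without it and -0.27 in A549. By DESeq2 with all 12 libraries SAT1 was called at 0.79 ± 0.31 (adjusted p = 0.04992), with SMS and OAZ1, 3 of 10 members beside 16.4% of all genes. The SMS call was lost when any 1 of 10 of the 12 libraries was left out (all but replicate 3 of the HEK293T groups), with adjusted p from 0.052 to 0.078, and without HEK293T SF3B2 replicate 3 it was joined by SRM and OAZ1, beside 17.9% of all genes. The members' medians were -0.01 and -0.21, beside -0.00481 and -0.02 over all genes.

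The genes whose levels followed SAT1 most closely over the 12 HEK293T libraries were VLDLR, a lipoprotein receptor (Pearson r = 0.983 of log2 CPM), ACSL4, an acyl-CoA synthetase of long fatty acids (0.978), ARSJ, a sulfatase (0.977), KATNBL1 (0.977) and SLIT3, an axon guidance ligand (0.974), among 13115 genes with at least 1 CPM. Over 11 libraries without eGFP replicate 3 they ranked 13, 8, 19, 28 and 39. In A549 they were PPARG, a nuclear receptor of fat metabolism (0.966), LMO7 (0.963), AREG, an EGF receptor ligand (0.963), KLF3, a transcriptional repressor (0.962) and RBM7, an RNA-binding protein (0.96), among 12719 genes, and these 5 also held ranks 1 to 5 without scramble replicate 3. Of the members, SMS was nearest to SAT1 in both lines, at rank 75 in HEK293T (0.948) and rank 76 in A549 (0.902). ODC1 (-0.85) and SRM (-0.848) ran opposite to SAT1 in HEK293T, and OAZ1 (-0.787) and OAZ2 (-0.819) did so in A549. The scramble libraries that SAT1 was chosen by are among the 12 points of HEK293T, and in each line the points fall into 4 groups of 3 libraries.

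Beyond these genes, a list of 23 further polyamine and methionine salvage genes was examined, of which 22 were in the table and 21 tested. Against scramble in HEK293T, 8 of 21 were called with snaR-A, 12 with eGFP and 8 with SF3B2, none of them above 2-fold. These were 38.1%, 57.1% and 38.1% of the list, near the 36.3%, 48.8% and 34.3% of all genes. Among the other plasmids of HEK293T, 5 were called with snaR-A against eGFP (23.8%, beside 15% of all genes) and 1, AZIN2, with SF3B2 against snaR-A (4.76%, beside 7.1%). DHPS, which starts the spermidine-dependent modification of the translation factor eIF5A, fell against scramble with snaR-A, eGFP and SF3B2 by 0.45 ± 0.05, 0.65 ± 0.05 and 0.64 ± 0.06, and the vesicular polyamine transporter SLC18B1 fell by 0.18, 0.40 and 0.38. ADI1, of the methionine salvage pathway, rose by 0.29, 0.43 and 0.38. In A549 no gene of the list was called against scramble by edgeR's quasi-likelihood test (0, 2 and 2 at an unadjusted p under 0.05 with snaR-A, eGFP and SF3B2), and the calls against eGFP were SLC18B1 with snaR-A (-0.30 ± 0.05, adjusted p = 0.034) and SLC18B1 (-0.28 ± 0.05, adjusted p = 0.022) and ATP13A2 with SF3B2, 1 and 2 of 21 beside 2.06% and 7.02% of all genes.

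Between the lines, 14 to 19 of the 21 were called (66.7% to 90.5%, beside 74.5% to 81.2% of all genes), and the same 9 passed 2-fold with each plasmid. ARG2, the mitochondrial arginase that supplies ornithine, lay at 32.8 to 43.6 CPM in HEK293T and 1.37 to 1.90 CPM in A549. MTAP, which salvages the methylthioadenosine left by spermidine and spermine synthesis, lay at 48.5 to 62.9 CPM in HEK293T and 2.46 to 3.96 CPM in A549. SLC18B1, AZIN2, SATL1 and MRI1 were also higher in HEK293T. AGMAT, an agmatinase, lay at 1.77 to 2.75 CPM in HEK293T against 17.2 to 21.5 CPM in A549, and SLC3A2, a heavy chain of amino acid transporters, at 107 to 209 against 490 to 708 CPM, with MAT2A also lower in HEK293T. ARG1 was at 0 in 23 of the 24 libraries and at 3 counts in HEK293T eGFP replicate 2.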

How the data were processed

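RNA of 24 samples was depleted of rRNA, enriched for poly(A) and made into stranded libraries. Per the labels and the study's methods, the authors trimmed reads with Trim Galore and quantified transcripts with Salmon. The authors deposited 1 unscaled table of estimated counts (expected counts) with 60236 Ensembl genes. The submitters' processing notes name hg38. The transcriptome release and the step from transcripts to genes are not given in the sources used here. Of the values, 51% were not whole, and all were rounded before testing.

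Each comparison was fitted on its own 6 libraries (12 for differences between lines in a plasmid effect) with edgeR 4.0.16 in R 4.3.3, using filterByExpr, TMM and the quasi-likelihood F-test. P-values were adjusted by Benjamini-Hochberg over all genes tested. A gene was called at an adjusted p under 0.05, the rule of every share of all genes called in the background of a count. Levels are CPM from TMM over 25923 genes kept in 24 libraries. Members, lists and the rule for named genes (SAT1 everywhere, called members with values, 5 genes most like SAT1 in each line by r of log2 CPM) were chosen with earlier results of these data known. Alternatives were edgeR's exactTest, DESeq2 1.42.0, RLE, library totals alone, a minimum of 10 counts per library or no filter, a replicate block and each library left out. A further alternative was 1 fit of all libraries, those of the line for plasmid comparisons and those of both lines for the rest. The likeness ranking without the library set apart was chosen after seeing the data. Replicate numbers were checked for pairing. Over 18 pairs of libraries with the same number in each line, residuals correlated at a median of -0.00635 in HEK293T and -0.00383 in A549, and the samples were treated as unpaired. None of 24 replicate pairs was a copy, the closest differing by 18.1 times Poisson variance. The steps were tested on simulated data. EIF5A is not analysed here.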

Additional observations from a re-analysis of the deposited data

Results flagged for a closer look

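The difference between SF3B2 and eGFP was not the same in both lines for SMS, the spermine synthase, by edgeR's interaction test (log2 0.2763 ± 0.06, adjusted p = 0.029, HEK293T minus A549, 6 libraries a line). SMS was 0.17 ± 0.05 higher with SF3B2 in HEK293T, where its libraries (128, 125 and 122 CPM) lay above the eGFP libraries (108, 107 and 115 CPM), and -0.08 ± 0.04 in A549, where its libraries (196, 197 and 189 CPM) lay below eGFP (203, 206 and 212 CPM). Neither within-line difference was called on its own (adjusted p = 0.17 and 0.23). The call was lost under scaling by library totals (log2 0.11, adjusted p = 0.26), without the low-count filter (log2 0.27, adjusted p = 0.087) and under the replicate block (log2 0.28, adjusted p = 0.076), and when any 1 of 10 of the 12 libraries was left out, with adjusted p from 0.052 to 0.078. It was kept without HEK293T eGFP replicate 3 (log2 0.31) and without HEK293T SF3B2 replicate 3.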

How the results depend on the processing

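The alternatives gave 841 values for SAT1 and for the members called in the main fits. Of these, 755 kept their direction and their side of the threshold, 75 lost the call, 8 gained it, all of SAT1, and 3 reversed. Calls that alternatives added for other members are outside this tally. Reversed were SAT1 with eGFP against scramble in A549 without scramble replicate 3 (-0.01414, with 0.1252 as the highest value without another library) and OAZ2 in HEK293T against A549 with snaR-A (0.1741) and eGFP (0.2423) under library totals alone. The cause was not tested.

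Numbers of members called changed as follows, with the share of all genes called in the same fit in brackets. Library totals alone gave 6 (37%) with snaR-A against scramble and 1 (15.9%) with SF3B2 against snaR-A in HEK293T. That scaling gave 1 (2.63%) with SF3B2 against snaR-A in A549 and 0 (4.92%) for the line difference of SF3B2 against eGFP. DESeq2 gave 1 (21.7%) with SF3B2 against snaR-A in HEK293T. In A549 it gave 1 each with snaR-A (0.185%) and eGFP (2.47%) against scramble and 3 (4.02%) with snaR-A against eGFP. For the line differences it gave 3 with snaR-A (14.3%) and 3 with SF3B2 (16.4%) against eGFP. exactTest gave 1 (13.2%) with SF3B2 against snaR-A in HEK293T. In A549 it gave 1 (1.96%) with eGFP against scramble and 2 (2.98%) with snaR-A against eGFP. It was not run for the line differences, since it compares 2 groups. By DESeq2 and exactTest SAT1 was among those called with snaR-A against eGFP in A549. By DESeq2 it was also among those called for the line difference of SF3B2 against eGFP. A minimum of 10 counts gave 1 (11.1%) with SF3B2 against snaR-A in HEK293T and 1 (11%) for the line difference of snaR-A against eGFP. No low-count filter gave 0 (1.87%) for that of SF3B2 against eGFP. All libraries in one fit gave, in HEK293T, 1 (8.69%) with SF3B2 against eGFP and 1 (18.4%) with SF3B2 against snaR-A. In A549 that fit gave 1 (2.18%) with eGFP against scramble, 2 (2.46%) with snaR-A against eGFP and 0 (0.0619%) with SF3B2 against snaR-A. For the line difference of snaR-A against eGFP it gave 1 (6.5%).

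The replicate block, for numbers that do not pair the libraries, gave 1 with SF3B2 against scramble in HEK293T (26.9% of all genes). In A549 it gave 1 (3.03%) with SF3B2 against eGFP and 0 (0.0416%) with SF3B2 against snaR-A. For the line differences of snaR-A and SF3B2 against eGFP it gave 1 (4.62%) and 0 (1.69%). Other counts under the block were within 1.5 times the main ones.

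Leaving out 1 library gave, in HEK293T, 2 to 4 members with snaR-A, 3 to 5 with eGFP and 1 to 3 with SF3B2 against scramble, 0 to 1 with snaR-A against eGFP, 0 with SF3B2 against eGFP and 0 to 3 with SF3B2 against snaR-A. In A549 it gave 0 with snaR-A and with eGFP and 0 to 6 with SF3B2 against scramble, 0 to 2 with snaR-A against eGFP, 0 to 4 with SF3B2 against eGFP and 0 to 3 with SF3B2 against snaR-A. Between the lines it gave 9 to 10 with snaR-A, 7 to 9 with SF3B2, 8 to 10 with eGFP and 5 to 7 with scramble, and 0 to 3 for each line difference. In these fits the share of all genes called moved as well, as with the 21.9% beside the 6 members in A549. PAOX, at 40 to 323 counts a library, was the member with the fewest counts.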
